A study of Rattus norvegicus with 8 samples.

Results

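The zinc finger genes described here carry a numbered Zfp symbol, and they code mostly for proteins with runs of C2H2 zinc fingers, small folds held by a zinc ion that read DNA or RNA. They were taken from arrays of NR8383 cells, a line of alveolar macrophages started by lavage of a normal rat lung. The control cells were kept for 4 h in serum-free medium with 0 µg/mL of nanotubes, and the treated cells for 4 h in serum-free medium with 0.17 µg/mL of NM401, a multi-walled carbon nanotube. Each condition had 4 biological replicates per the labels, and each replicate was hybridised to a 1-colour Agilent array. NR8383 is 1 cell line grown without other lung cells, which limits it as a model of the alveolus. The members were chosen by gene name, as every non-control probe named Zfp followed only by digits, without Zfp36, which codes for an RNA-binding protein with another kind of zinc finger. The family was put forward with the NM401 against control differences of these same arrays known, so those differences are given as a description and support nothing about the family. The rule gave 222 of the 36174 gene names on the array, covered by 341 probes, and 162 of the 222 had a probe bright enough to be tested.

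Many mammalian C2H2 genes also code for a KRAB box, a domain that recruits the co-repressor Trim28. Trim28 in turn brings the histone methyltransferase Setdb1, HP1 proteins and the NuRD deacetylase complex, which together keep chromatin silent, much of it in transposable elements. KRAB zinc finger genes arose largely by tandem duplication and often lie side by side on a chromosome. Other C2H2 proteins lack this box and act as transcription activators, as ubiquitin ligases, or in ribosome assembly and splicing.

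Levels are log2 of the processed spot signal minus the 75th percentile of it on the same array, so 0 is the brightness that 1 in 4 spots pass. Differences are NM401 minus control on this log2 scale, with the standard error (SE) of a limma fit over all probes. A gene stood by its brightest tested probe, and it was called higher or lower at a Benjamini-Hochberg adjusted p below 0.05 over 21685 probes. No spot was saturated. The 75th percentile signal was 958 to 1489 on the control arrays and 2537 to 2878 on the NM401 arrays. The median of the spike-in controls, NM401 minus control, was -2.298 on the log2 scale after scaling. Higher and lower below are thus relative to the array's 75th percentile. Scaled to the spike-ins, all differences would lie higher by the size of that shift, and directions on that scale were not tested. All 4 control arrays and NM401 replicate 1 shared a slide, while NM401 replicates 2 to 4 lay on another slide. The arrays of the controls lay in row 1 of their slide and those of NM401 in row 2, and an effect of the row cannot be told apart from NM401. Of 14 macrophage markers, 13 were on the array and 11 were well above background on all 8 arrays, while Marco was above it on none. Their summed signal, in units of the 75th percentile signal, was 186 to 195 on control and 180 to 192 on NM401 arrays. The summed signal of 10 epithelial markers was 0.113 to 0.14 on control and 0.12 to 0.185 on NM401 arrays, with Epcam and Cdh1 above background on no array. The lymphocyte markers summed to 0.693 to 0.927 and 0.35 to 0.402, the neutrophil markers to 0.479 to 0.67 and 0.328 to 0.448, and the fibroblast and endothelial markers to 2.91 to 3.79 and 3.11 to 3.21, control first. The part of other cells in the values below was not tested. In RNA of whole cultures, fewer cells with a transcript and less of it per cell cannot be told apart.

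Sequences upstream of 5 members are shown first, because 3 of them belong to a run of neighbours on chromosome 1 that were called higher together, 1 is the neighbour called lower, and Zfp523 had the largest difference among members whose groups did not overlap. Each is the 250 bases before the gene's start in RefSeq, build GRCr8, on the gene's own strand. The coordinates are chr1:88780092-88780341 (plus strand) for Zfp180, chr1:88985660-88985909 (minus strand) for Zfp61, chr1:89007516-89007765 (minus strand) for Zfp94, chr1:89227192-89227441 (plus strand) for Zfp428 and chr20:6245078-6245327 (plus strand) for Zfp523. Capitals mark matches, on either strand, to short motifs named after the sequences.
Zfp180: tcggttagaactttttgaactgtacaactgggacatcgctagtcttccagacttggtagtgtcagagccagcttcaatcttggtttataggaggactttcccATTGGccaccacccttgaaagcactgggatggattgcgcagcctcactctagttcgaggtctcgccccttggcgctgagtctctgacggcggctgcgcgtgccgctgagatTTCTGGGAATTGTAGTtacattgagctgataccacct
Zfp61: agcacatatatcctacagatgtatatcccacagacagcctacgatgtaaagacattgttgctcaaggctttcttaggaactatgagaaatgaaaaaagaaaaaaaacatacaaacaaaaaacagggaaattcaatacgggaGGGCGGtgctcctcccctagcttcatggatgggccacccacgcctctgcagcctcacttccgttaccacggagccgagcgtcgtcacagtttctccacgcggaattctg
Zfp94: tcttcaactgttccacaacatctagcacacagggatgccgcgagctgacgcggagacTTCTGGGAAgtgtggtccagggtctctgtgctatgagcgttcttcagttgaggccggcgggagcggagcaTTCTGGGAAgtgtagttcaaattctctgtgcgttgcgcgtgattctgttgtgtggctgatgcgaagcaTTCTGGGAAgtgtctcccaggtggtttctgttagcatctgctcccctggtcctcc
Zfp428: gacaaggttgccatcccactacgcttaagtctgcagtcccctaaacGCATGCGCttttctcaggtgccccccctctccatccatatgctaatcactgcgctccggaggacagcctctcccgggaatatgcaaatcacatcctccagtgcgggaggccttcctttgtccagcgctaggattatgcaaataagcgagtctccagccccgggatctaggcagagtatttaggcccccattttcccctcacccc
Zfp523: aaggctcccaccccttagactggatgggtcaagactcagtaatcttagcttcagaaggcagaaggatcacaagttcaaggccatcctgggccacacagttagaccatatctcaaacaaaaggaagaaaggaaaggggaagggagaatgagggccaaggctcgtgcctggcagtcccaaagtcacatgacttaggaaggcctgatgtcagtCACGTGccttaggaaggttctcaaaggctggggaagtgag
In Zfp180 the capitals mark a CCAAT box (CCAAT) read on the other strand. Next to the start they mark the run TTCTGGGAA joined to the reverse of ACTACAA, a stretch of the site read by the activator Zfp143. Only that stretch of the site was searched for, so TTCTGGGAA was not compared with the rest of it. Zfp94 held TTCTGGGAA in 3 places. Zfp61 held the SP factor motif GGGCGG, Zfp428 held the NRF1 motif GCGCATGC on the other strand, and Zfp523 held the E-box CACGTG. The run TTCTGGGAA is the longest stretch that the windows of Zfp180 and Zfp94 share, and it was picked after the sequences had been seen. A match is a description of letters, not a binding site.

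Promoter windows of 300 bases, from 250 before to 50 after the start, were matched through RefSeq accessions for 103 of the 162 tested members. Their median GC content was 57.7%, against 60% for the promoters of 8161 tested genes and 51.7% for all 33469 promoters in the table. The ETS factor motif CCGGAAG was in 25.2% of the member promoters, 19.3% of those of tested genes and 8.75% of all promoters. ACTACAA, a stretch of the Zfp143 site, was in 8.74%, 4.13% and 3.36%, and the NRF1 motif in 6.8%, 5.1% and 2.47%. The SP motif was in 46.6%, 59.5% and 33.1%, and CCAAT, the shortest of the motifs, in 37.9%, 38.5% and 37.5%. The E-box was in 6.8%, 9.14% and 6.42%, the cyclic AMP response element TGACGTCA in 3.88%, 3.25% and 1.83%, and the AP-1 site TGANTCA in 3.88%, 5.29% and 7.33%. The AP-1 site is read by Fos and Jun proteins. TTCTGGGAA was in 1.43% of the promoters of tested genes and in 1.15% of all promoters. It was in 5 member promoters, and nothing is read from that number, since the run was defined by 2 of them and those had been shown because the genes were called higher. The 5 were Zfp180, Zfp61, Zfp94, Zfp566 and Zfp84, which lie in 2 groups of neighbours on chromosome 1 described further on.

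The levels of the tested members ranged from -6.28 to 2.18, with a median of -2.74. A probe's brightness depends on its sequence as well as on the amount of transcript, so the level of one gene is not set against that of another. Of the 60 members that were not tested, 45 were well above background on no array and 15 on 1 to 3 arrays. The 45 held several genes known for other tissues: Zfp42, a marker of pluripotent stem cells, Zfp57, which guards imprints in the embryo, Zfp423 and Zfp467, known from fat cell development, Zfp521, known from immature blood and nerve cells, and Zfp366, known from dendritic cells. Among those with some signal, Zfp68 was above background on 3 arrays and Zfp37 on 2. Of the 162 tested members, 140 were above background on all 8 arrays. These 140 also held genes known from other tissues, among them Zfp503 (developing brain), Zfp513 (retina) and Zfp238 (neural). The filter needs 4 arrays, so members that passed are not all members.

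The probes with the highest signal were those of Zfp207, Zfp91, Zfp598, Zfp706, Zfp524 and Zfp131. Zfp207, which loads the checkpoint protein Bub3 on chromosomes in mitosis, had control levels of 2.29, 2.24, 2.18 and 2.11 and NM401 levels of 2.20, 2.18, 2.12 and 2.15, and the groups overlapped. Zfp706 had control levels of 1.40, 1.43, 1.35 and 1.49 and NM401 levels of 2.00, 1.80, 1.79 and 1.78. All 4 NM401 arrays were above all control arrays for Zfp706, with replicate 1 the highest, and the difference was 0.43 ± 0.07. Zfp131, a transcription factor with a BTB domain, went from 0.94, 0.98, 1.02 and 0.86 on control arrays to 1.28, 1.35, 1.29 and 1.44 on NM401 arrays, again without overlap. Zfp524 was called in neither direction, although its NM401 levels of 1.12, 1.21, 1.08 and 1.13 were all below its control levels of 1.28, 1.24, 1.25 and 1.21.

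Of the 162 tested members, 50 (30.9%) were called higher with NM401 and 33 (20.4%) lower, and 79 were not called. Over all tested genes 21.9% were called higher and 35.4% lower. Since the rule's contrast is this same one, nothing is read from the gap between the shares. The median difference of the members was 0.07, against -0.10 for all tested genes, so the members' median lay 0.17 above that of all genes. The members' own median was 0.12 after quantile normalisation and 0.27 after median scaling. Median scaling moves the difference of every gene by the same amount, so it is no check on the members. The members' median was below 0 with normexp background correction (-0.14) and with the deposited series values (-0.10). Over all 222 members, with no filter on dim probes, it was -0.0412. Relative to the median of all genes it was 0.10 to 0.17 in the first 4 of these settings and 0.35 with no filter. With median scaling this relative value is 0.17 by construction, as in the main fit. Of the called members, 60.2% were higher as reported here, 81.9% with median scaling, 29.8% with normexp and 35% with the series values. The levels of the groups, 4 arrays each, were fully apart for 79 members (48.8%), 50 of them higher and 29 lower, against 53.2% of all tested genes. Most differences were small: 13 members were called higher and 12 lower by at least 1.5-fold, and 4 by at least 2-fold. Shares of all tested genes at these fold cutoffs are not given here. The median SE was 0.0854, and the median SD between replicates was 0.122 for control and 0.102 for NM401.

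**Figure D1:**
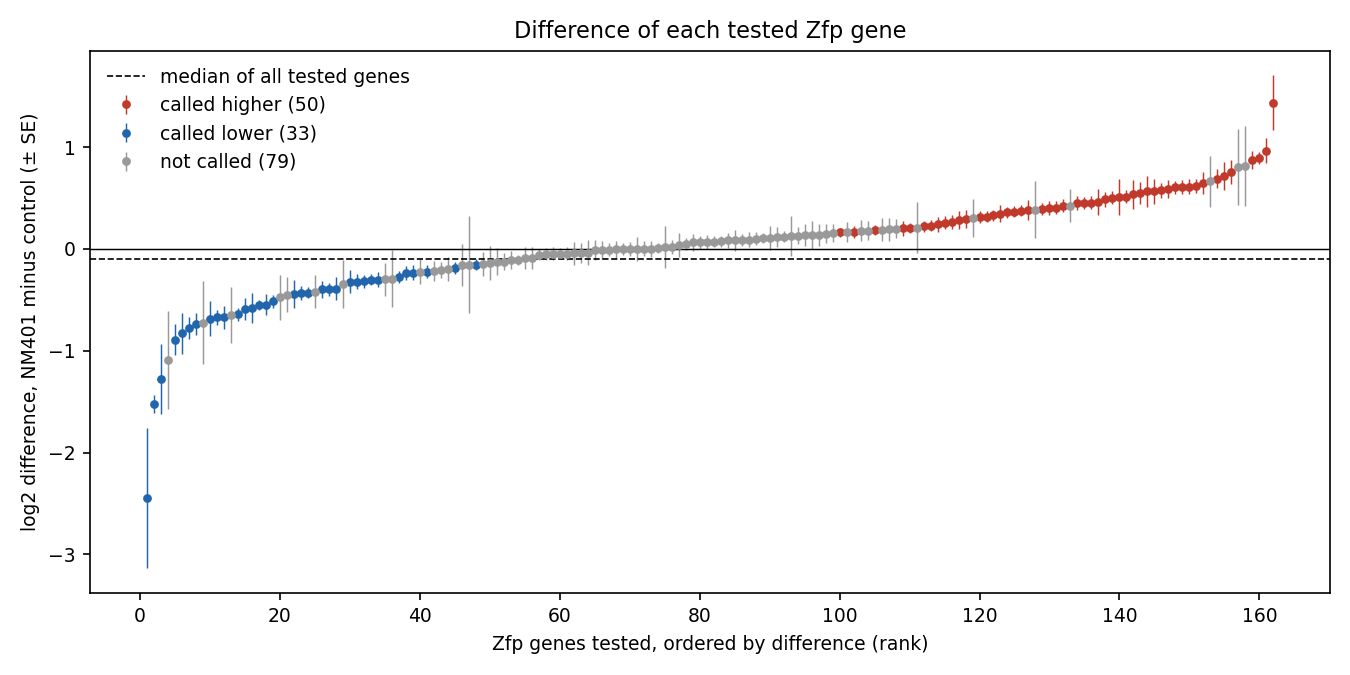
Difference of each of the 162 tested Zfp genes, NM401 minus control on the log2 scale (vertical axis, with SE bars), in rank order (horizontal axis). Red points are the 50 called higher, blue the 33 called lower and grey the 79 not called, and the dashed line is the median of all tested genes, at -0.10.

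The calls were also counted by level, with no test. Below a level of -4, 5 of 48 members were called higher and 12 lower, where all tested genes of that level gave 15.4% and 34.7%. Between -4 and -2, 23 of 56 members were called higher and 6 lower, beside 25.8% and 30.5% of all genes. Between -2 and 0 it was 17 higher and 12 lower of 46 (29.3% and 30.2% of all genes), and above 0 it was 5 higher and 3 lower of 12 (19.1% and 43.8%). Across the 162 members, which share arrays and so are not independent, level and difference had a Pearson correlation of 0.0813 and a Spearman correlation of 0.0928.

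**Figure D2:**
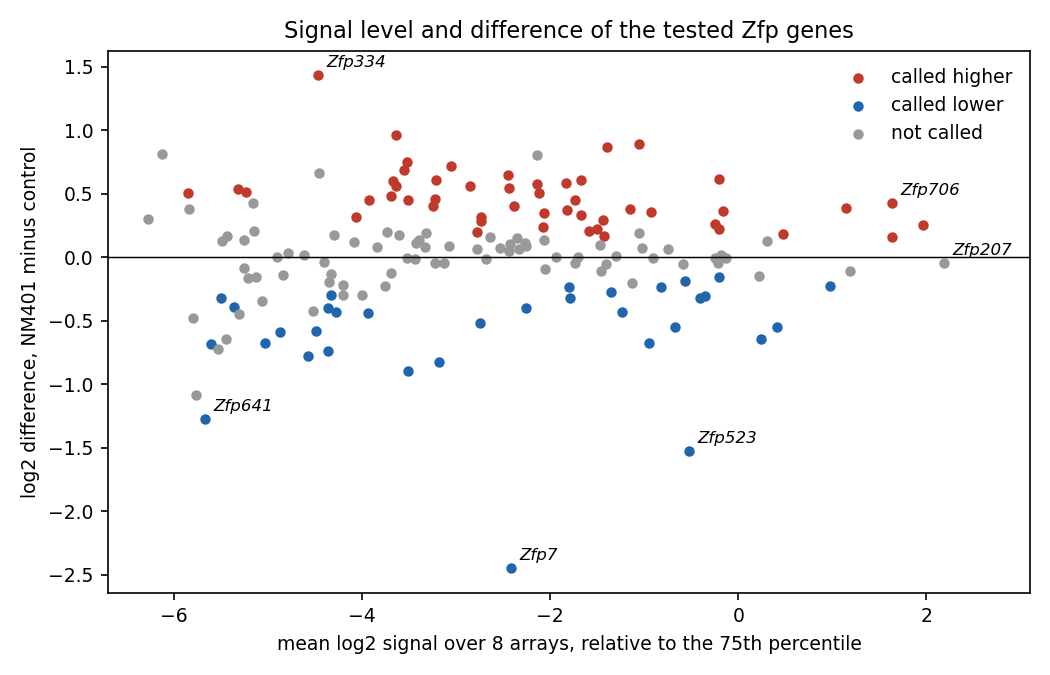
Difference, NM401 minus control on the log2 scale (vertical axis), against mean level over the 8 arrays relative to the 75th percentile (horizontal axis), 1 point per tested Zfp gene. Most points lie below a level of 0, and Zfp7 at -2.45 and Zfp334 at 1.43 mark the ends of the range.

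Zfp523 had the largest lower difference among members whose groups did not overlap. It is the rat counterpart of human ZNF76, a transcription factor closely related to Zfp143, and its probe lies at chr20:6446437-6446496 on build rn4. Its control levels were 0.37, 0.21, 0.30 and 0.06, and its NM401 levels were -1.13, -1.26, -1.38 and -1.39. Every NM401 array was more than 1 log2 unit below every control array, and the difference was -1.53 ± 0.09, or 2.88-fold lower. Zfp143 itself, which activates small nuclear RNA genes and many housekeeping promoters, had a difference of 0.07 ± 0.06 and overlapping groups. Zfp362 was also lower, with control levels of -0.49, -0.70, -0.76 and -0.49 against -1.33, -1.29, -1.25 and -1.27, a difference of -0.67 ± 0.07. Its close relative Zfp384, a regulator of matrix genes, was called higher by 0.18 ± 0.05, with control levels of 0.39, 0.42, 0.38 and 0.36 and NM401 levels of 0.52, 0.60, 0.66 and 0.51. Neither of that pair had overlapping groups.

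Further members with large lower differences were Zfp184 (-0.89 ± 0.15), Zfp791 (-0.83 ± 0.20), Zfp418 (-0.78 ± 0.10) and Zfp395 (-0.74 ± 0.10), the last first described as a protein binding the Huntington's disease gene promoter. With the slide as a block Zfp184 was at -0.50 and not called. For Zfp418 the second tested probe was at 0.55, not called, and the mean of both probes was at -0.11, not called. For Zfp791 the size came from NM401 replicates 2 to 4, since the NM401 levels were -2.94, -3.89, -3.79 and -3.77 and the control levels -2.83, -2.89, -2.71 and -2.66. With the slide as a block its difference was -0.17 and it was not called. Zfp628 had control levels of 0.49, 0.47, 0.68 and 0.61 and NM401 levels of -0.04, -0.14, -0.10 and -0.05, without overlap and with a difference of -0.64 ± 0.06. The remaining members of the 12 largest were Zfp113, Zfp428, Zfp597, Zfp526 and Zfp746, with differences from -0.68 to -0.55. Zfp113 was close to background, above it on 3 control and 2 NM401 arrays.

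Among higher members, Zfp334 had the largest difference. Its probe lies at chr3:156437138-156437197 on rn4. Control levels were -5.32, -5.25, -5.78 and -4.38 and NM401 levels -4.04, -3.57, -3.73 and -3.66, so the groups did not overlap, but the control arrays spread over more than 1 log2 unit. The difference was 1.43 ± 0.27, or 2.7-fold higher, and 0.35, not called, with normexp background correction. With the slide as a block it was 1.14 and not called. Zfp692, the counterpart of a human repressor of gluconeogenic genes, had control levels of -4.28, -4.32, -3.91 and -4.003 and NM401 levels of -3.31, -3.31, -3.01 and -3.02. Its difference was 0.97 ± 0.12 (1.95-fold), and it was 0.40, still called, with normexp.

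Zfp146, a protein made almost only of zinc fingers, had tight replicates, with -1.43, -1.505, -1.58 and -1.502 on control and -0.56, -0.63, -0.71 and -0.55 on NM401 arrays. The difference was 0.89 ± 0.06, or 1.86-fold, and it was 0.75 to 1.097 over the other settings tried. Zfp513, known from the retina, had control levels of -1.87, -1.99, -1.70 and -1.76 and NM401 levels of -1.11, -0.96, -0.81 and -0.97, a difference of 0.87 ± 0.09. Zfp202, a KRAB protein known as a repressor of lipid transport genes, went from -3.92, -4.15, -3.59 and -3.93 to -3.29, -3.14, -3.04 and -3.11, a difference of 0.75 ± 0.12. In each of these 3 genes all NM401 arrays lay above all control arrays. The remaining members of the 12 largest were Zfp646, Zfp964, Zfp958, Zfp386, Zfp472, Zfp94 and Zfp799, with differences from 0.60 to 0.72. For Zfp386 the second tested probe was dim and at -0.29, not called, and the mean of both probes was 0.16, not called. For Zfp799 the second tested probe was at 0.17, not called.

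**Figure D3:**
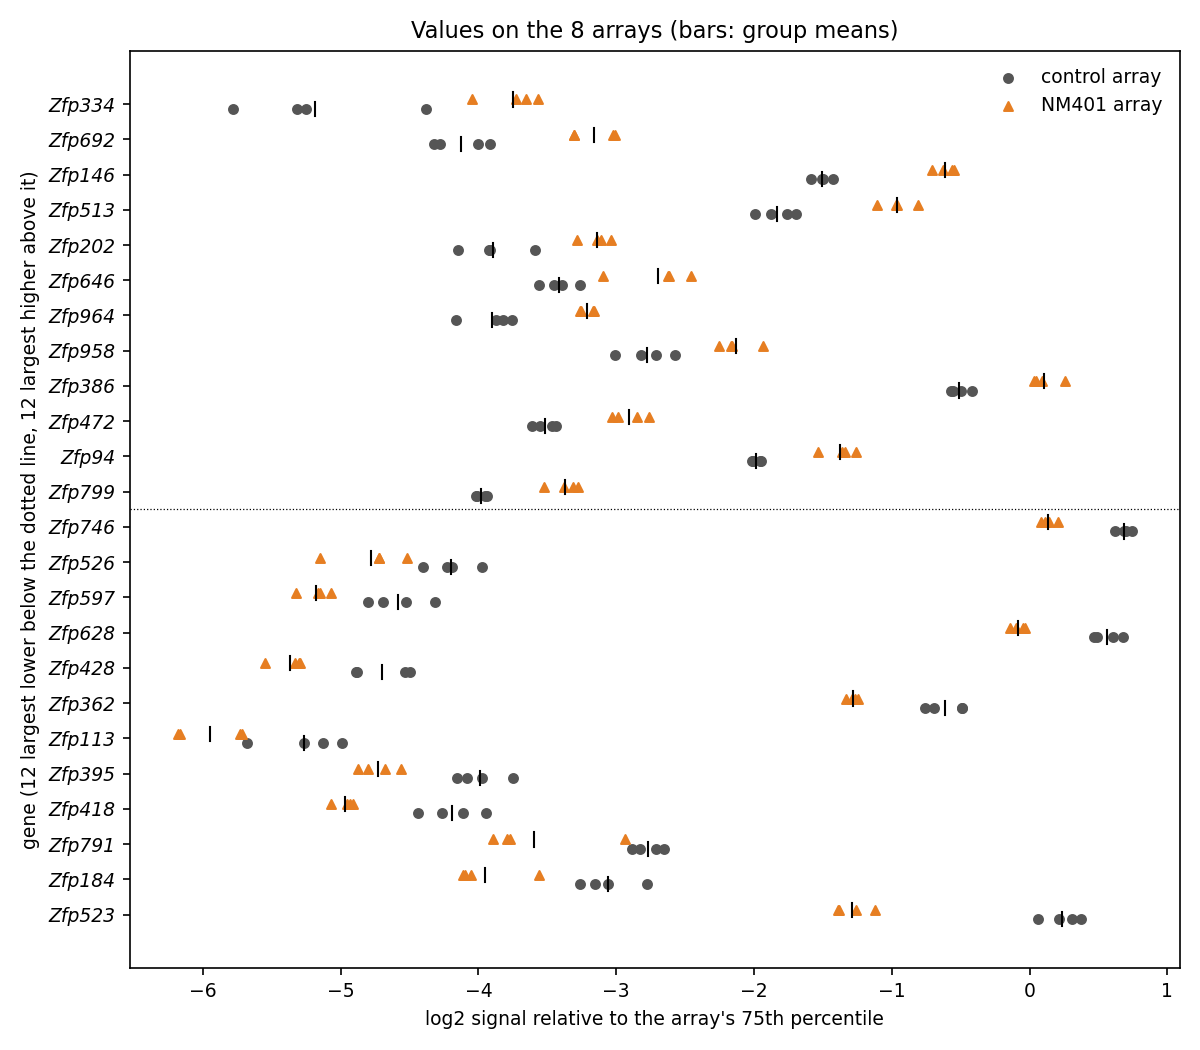
Level on each of the 8 arrays, as log2 signal relative to the array's 75th percentile (horizontal axis), for the 12 members with the largest higher and the 12 with the largest lower differences whose groups did not overlap (vertical axis). Grey circles are control and orange triangles NM401 arrays, bars are group means, and Zfp523 shows the widest lower gap, at -1.53.

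Zfp7 had the lowest difference of all, -2.45 ± 0.69, and was called lower, yet its groups overlapped. Its control levels were -0.67, -0.98, -3.17 and 0.04, with replicate 3 far below the others, and its NM401 levels were -2.47, -4.07, -4.05 and -3.99. With the slide as a block the difference was -1.27 and was not called. Zfp641 likewise was called lower by -1.28 ± 0.35 with overlapping groups, and it was above background on 3 control arrays and 1 NM401 array. Zfp182 stood out the other way: its NM401 levels were -0.50, -2.11, -2.18 and -2.18 and its control levels -2.43, -2.48, -2.43 and -2.85, and its difference of 0.81 ± 0.37 was not called. It was 0.39, and called, without NM401 replicate 1. These 3 genes were named after their values had been seen.

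Members with known roles in gene control formed a list of 25, of which 23 were on the array and 16 tested. Of these, 5 were called higher, 4 lower and 7 not called, with a median difference of 0.07. That is 31.2% higher and 25% lower, beside 21.9% and 35.4% of all tested genes. The 5 higher were Zfp238, a neural repressor also known as Zbtb18, Zfp281, a binder of GC-rich promoters, Zfp384, Zfp503, a co-repressor of the developing brain, and Zfp91, a ubiquitin ligase of the noncanonical NF-kappaB pathway. Zfp91 had control levels of 1.90, 1.96, 1.73 and 1.76 and NM401 levels of 2.05, 2.12, 2.06 and 2.16, a difference of 0.26 ± 0.07. Zfp238 had the largest difference of the 5, 0.45 ± 0.07. Zfp384 was not called without NM401 replicate 2 or 3, at 0.18 and 0.16. With the slide as a block Zfp384, Zfp503 and Zfp91 were no longer called, at 0.13, 0.30 and 0.21.

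The 4 lower members of that list were Zfp746, Zfp395, Zfp161 and Zfp410. Zfp746, also known as PARIS, is a repressor of the PGC-1alpha gene that parkin marks for degradation. Its control levels were 0.74, 0.69, 0.62 and 0.70 and its NM401 levels 0.21, 0.14, 0.11 and 0.08, without overlap, and the difference was -0.55 ± 0.05. Zfp161, now named Zbtb14 in RefSeq, had a difference of -0.55 ± 0.10, which was -0.15 and not called when its tested probes were averaged. Its other, dimmer probe was at 0.24 and not called. With the slide as a block Zfp161 was at -0.45 and not called. Zfp410 is known as an activator of the gene of the NuRD remodeller Chd4. Zfp410 differed by -0.23 ± 0.07, with control levels of -0.70, -0.55, -0.74 and -0.85 and NM401 levels of -1.02, -0.89, -0.91 and -0.96, but by -0.03, not called, with median scaling. It was also not called without control replicate 1 or NM401 replicate 1 or 4, at -0.23 to -0.21. Nor was it called with quantile normalisation (-0.19), with its probes averaged (-0.12) or with the slide as a block (-0.31). Zfp110, Zfp143, Zfp148, Zfp219, Zfp292, Zfp407 and Zfp592 were not called, with differences from -0.11 to 0.17. Zfp110, the highest of these and close to background, was called lower with normexp (-0.49) and with the series values (-0.40), and higher with quantile normalisation (0.39) and median scaling (0.37).

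A second list held 11 members with roles in RNA, ribosomes, ubiquitin or cell division, of which 9 were on the array and 8 tested. Of these, 5 were called higher, 1 lower and 2 not called, with a median difference of 0.21. That is 62.5% higher and 12.5% lower, beside the same 21.9% and 35.4%. Each gene was put in 1 list only, by choice, so the ubiquitin ligase Zfp91 was counted in the gene control list. Zfp598, the ubiquitin ligase that senses collided ribosomes, had control levels of 1.57, 1.55, 1.52 and 1.57 and NM401 levels of 1.72, 1.73, 1.69 and 1.72. The gap was narrow, 0.16 ± 0.04, and so was the spread, from 1.52 to 1.57 in the controls and from 1.69 to 1.73 with NM401. Zfp598 was not called with the replicate block (0.16), the slide as a block (0.17), the series values (0.12) or no filter on dim probes (0.16). Zfp622, a factor of large ribosomal subunit maturation, differed by 0.38 ± 0.10, with NM401 replicate 1 at -1.23 and the other NM401 arrays from -0.90 to -0.84. Its control levels were -1.47, -1.32, -1.33 and -1.27, so replicate 1 lay near the controls, and with the slide as a block the difference was 0.12 and was not called. Zfp830, a spliceosome component, differed by 0.26 ± 0.07 and Zfp706 by 0.43 ± 0.07. Zfp593, a nucleolar factor of ribosome assembly, was dim, above background on 2 control and all 4 NM401 arrays, and its difference of 0.54 ± 0.14 turned to -0.29 with normexp and -0.075 with the series values. The lower member was Zfp326, which acts in transcript elongation and splicing, at -0.32 ± 0.07. Zfp207 and Zfp330 were not called, at -0.05 ± 0.06 and 0.02 ± 0.07.

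Other called members, named after their values had been seen, were Zfp451, Zfp638, Zfp516 and Zfp605. Zfp451 is a SUMO ligase, and its levels went from -1.99, -2.19, -2.24 and -2.09 to -1.75, -1.51, -1.51 and -1.40, a difference of 0.59 ± 0.09. Its other tested probe was at -0.14 and not called, and the mean of both was 0.22. Zfp638, known for silencing unintegrated retroviral DNA, went from -1.05, -1.13, -1.16 and -1.10 to -0.77, -0.79, -0.76 and -0.68, a difference of 0.36 ± 0.05. Groups did not overlap for either gene. Zfp516, a factor of brown fat, was called higher by 0.51 ± 0.06 near background, and Zfp605 by 0.51 ± 0.17 with overlapping groups. Zfp605 stayed called only when control replicate 2 or NM401 replicate 4 was the array left out, and it was 0.35 without control replicate 3. Zfp516 and Zfp605 turned lower with normexp, to -0.32 and -0.48, and with the series values, to -0.23 and -0.27.

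Zfp genes often lie next to each other, and the positions in the files, on rn4, gave 12 groups of at least 3 tested members with no more than 1 Mb between neighbours. These groups held 54 members, 12 called higher and 15 lower, with a median difference of -0.0051. The 101 members outside them with a known position had 37 higher and 15 lower and a median of 0.13. Over all tested genes 21.9% were called higher and 35.4% lower. The difference between members inside and outside the groups was not tested. Of the 12 groups, 5 held lower but no higher members, 3 held higher but no lower members, 3 held both, and 1 held no called member. The groups and genes described next were picked after their values had been seen.

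On chromosome 1, between 79325341 and 80394939, 7 tested members lay in a row. The first 4 in order, Zfp180, Zfp111, Zfp61 and Zfp94, were called higher, and the next, Zfp428, was called lower. Zfp111 had control levels of -2.38, -2.35, -2.48 and -2.49 and NM401 levels of -2.01, -1.73, -1.84 and -1.83, a difference of 0.57 ± 0.07. Zfp94, whose upstream window holds 3 copies of TTCTGGGAA, had control levels of -2.01, -1.95, -1.96 and -2.01 and NM401 levels of -1.54, -1.34, -1.26 and -1.36, a difference of 0.61 ± 0.07. For Zfp61 the difference was 0.45 ± 0.06 and for Zfp180 it was 0.20 ± 0.07. Zfp180 was called without NM401 replicate 2 or 4 but not without any of the other 6 arrays, nor with the replicate block. With normexp those of Zfp61 and Zfp180 were -0.014 and -0.018 and were not called. Zfp428 had control levels of -4.54, -4.49, -4.88 and -4.89 and NM401 levels of -5.30, -5.33, -5.30 and -5.55, a difference of -0.67 ± 0.11. Zfp575 and Zfp574, the last in the row, were not called, at -0.65 ± 0.27 and -0.45 ± 0.17, but both were called lower with normexp and with the series values. No control array overlapped an NM401 array for the 5 called genes.

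On chromosome 16, 3 neighbours within 79.3 kb, Zfp869, Zfp964 and Zfp868, were all called higher. Zfp964 had control levels of -3.82, -4.17, -3.75 and -3.87 and NM401 levels of -3.26, -3.26, -3.17 and -3.16, a difference of 0.69 ± 0.09. Zfp869 differed by 0.49 ± 0.07 and Zfp868 by 0.22 ± 0.05. With normexp the differences were 0.17, 0.05 and 0.14 and none of the 3 was called. On chromosome 10, Zfp597 and Zfp213 were called lower, at -0.59 ± 0.11 and -0.32 ± 0.11. Zfp263 between them was not called, at -0.42 ± 0.16. It was -0.56 and called without NM401 replicate 1, but -0.01 and not called with the slide as a block. Zfp213 was near background with overlapping groups, and it was not called with the replicate block or without any 1 of the arrays other than control replicate 3. On chromosome 4, a row of 7 held 2 lower members, Zfp786 and Zfp746, and none called higher. Zfp786 had overlapping groups and was not called with quantile normalisation, median scaling, array weights or the slide as a block.

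**Figure D4:**
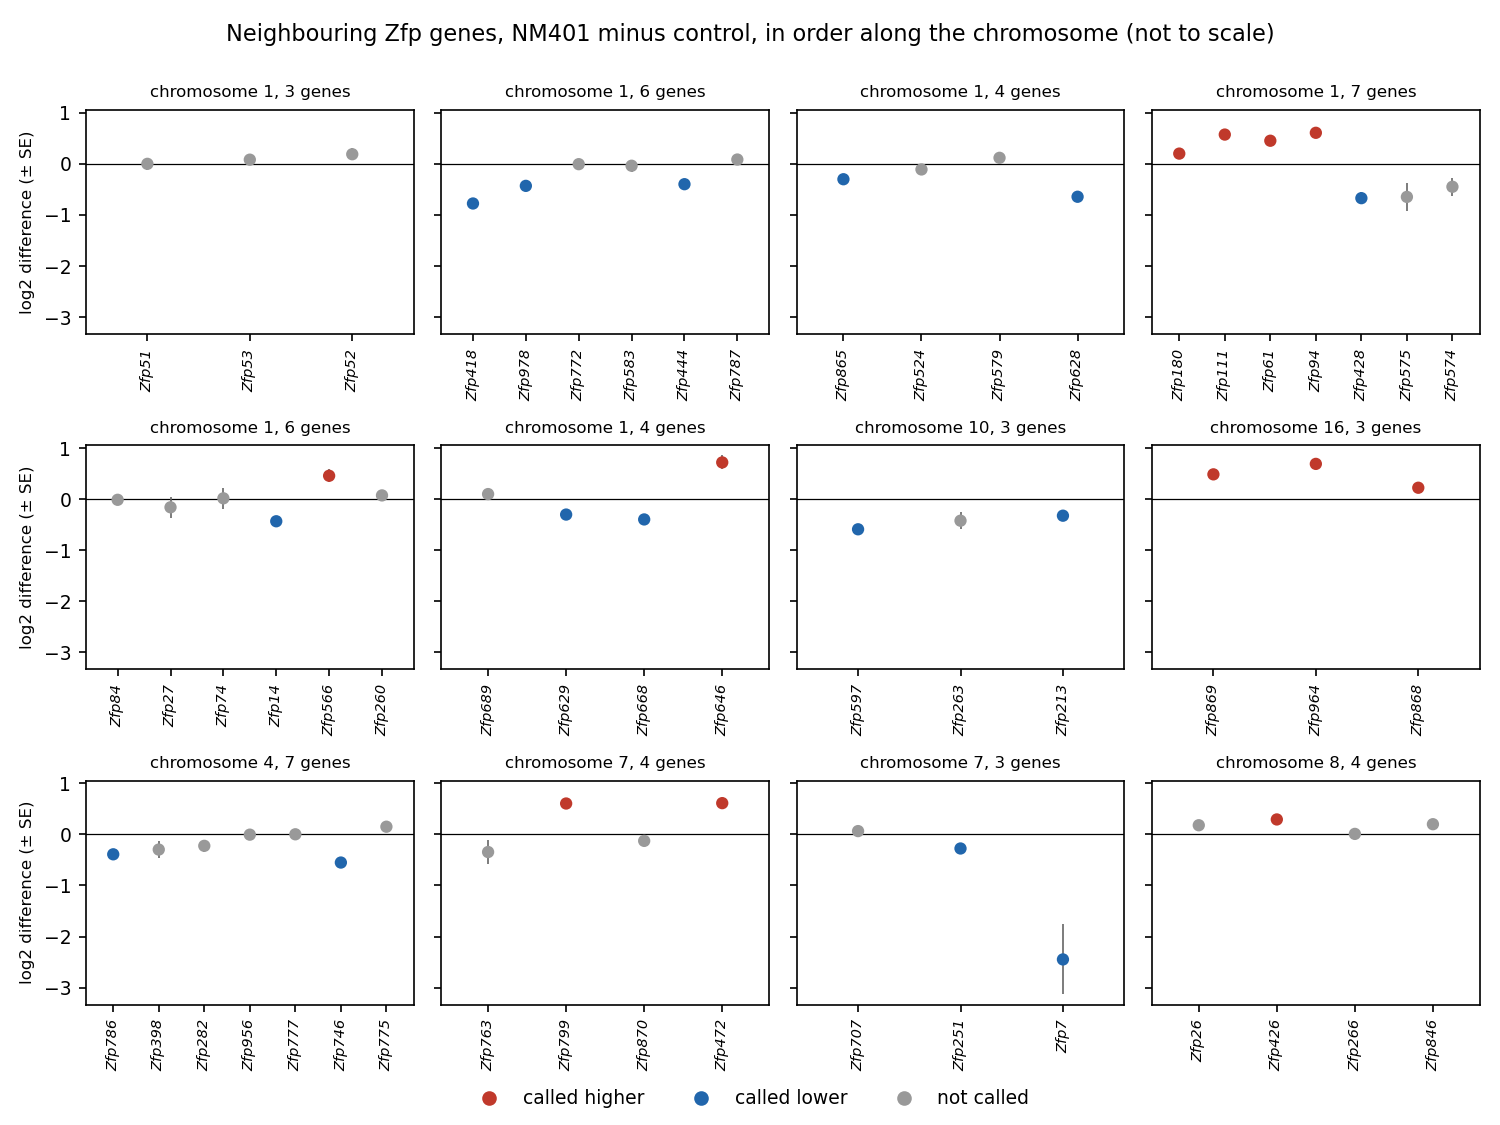
Differences, NM401 minus control on the log2 scale (vertical axes, with SE bars), of the 54 tested members in the 12 groups of neighbours, 1 panel per group, with genes in chromosome order (horizontal axes, not to scale). Red points were called higher, blue lower and grey not called; the row of 7 on chromosome 1 has 4 red points followed by 1 blue and 2 grey, and all 3 points on chromosome 16 are red.

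Several members had more than 1 probe, and the probes did not always tell the same story. Of the 222 genes, 85 had at least 2 probes and 53 at least 2 tested probes. In 11 of the 53 all probes had the same call, in 11 none was called, in 27 some were called, and in 4 called probes went in opposite directions. These 4 were Zfp207, Zfp236, Zfp646 and Zfp958. For Zfp646 the 3 tested probes differed by 0.72, -0.69 and 0.49, all of them called, from the brightest to the dimmest. For Zfp958 the 4 probes differed by 0.65, -0.25, -1.41 and 2.15, of which the 0.65 and the -1.41 were called. For Zfp236 the brighter probe differed by 0.40 and the dimmer by -0.34. For Zfp207 the brightest probe was not called, while the next 2 were lower by -0.23 and higher by 0.38. Averaging each gene's tested probes left 45 members called higher and 30 lower, beside 21.7% and 35.1% of all tested genes. A stretch of 20 letters shared with a probe of another gene name was found for the chosen probes of 6 tested members, Zfp113, Zfp141, Zfp192, Zfp347, Zfp52 and Zfp628, in no case another Zfp member.

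The partners of KRAB zinc finger proteins were taken as a list of 40 genes, all on the array, of which 38 were tested. Of these, 8 were called higher, 12 lower and 18 not called, and the median difference was -0.04. That is 21.1% higher and 31.6% lower, beside 21.9% and 35.4% of all tested genes. Trim28, the co-repressor that KRAB boxes bind, was lower by -0.57 ± 0.07, with control levels of 2.28, 2.24, 2.43 and 2.44 and NM401 levels of 1.70, 1.82, 1.83 and 1.76. Setdb1, the methyltransferase that Trim28 brings, was not called, at 0.16 ± 0.06. Mphosph8, a reader of histone H3 lysine methylation in the HUSH silencing complex, was higher by 0.66 ± 0.05. Its control levels were -1.49, -1.45, -1.44 and -1.56 and its NM401 levels -0.83, -0.82, -0.83 and -0.82. Suv39h2, another histone methyltransferase, was lower by -1.39 ± 0.12. Of 11 listed genes of the NuRD complex 10 were tested, and 7 were called lower, 2 higher and 1 was not called. The 7 were Rbbp4 (-0.81 ± 0.07), Gatad2b (-0.73 ± 0.06), Mta1 (-0.63 ± 0.08), Chd4 (-0.41 ± 0.08), Hdac1 (-0.39 ± 0.09), Rbbp7 (-0.32 ± 0.06) and Gatad2a (-0.24 ± 0.05). Mta2 (0.26 ± 0.05) and Chd3 (0.27 ± 0.09) were higher, and Mbd3 (-0.09 ± 0.08) was not called. With median scaling Chd4, Hdac1, Rbbp7 and Gatad2a were not called, and with the slide as a block Rbbp7, Mta2 and Chd3 were not. Trim28, Setdb1 and the NuRD genes other than Rbbp4 and Gatad2b were named for their roles after their values had been seen. With median scaling the list had 16 higher and 7 lower, beside 35% and 19.2% of all tested genes.

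Other zinc finger names were counted in the same way, since the numbered Zfp names cover only part of the class. Of 29 tested Zbtb genes, 10 were called higher and 6 lower, with a median difference of 0.10. Of 8 Zscan and Zkscan genes, 2 were higher and 2 lower, and of 4 Znf genes, 0 were higher and 1 lower. Zfp names with a letter after the number had 2 higher and 5 lower of 14. Zc3h genes, which bind RNA with CCCH fingers, had 8 higher and 4 lower of 17, with a median of 0.15. Beside these counts, 21.9% of all tested genes were called higher and 35.4% lower, with a median of -0.10.

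NM401 replicate 1 was the only NM401 array on the slide of the controls, so a fit that accounts for the slide leans on it. With the slide as a block, which rests on that array, 32 members were called higher and 17 lower, beside 12.7% and 20.2% of all tested genes and 19.8% and 10.5% of members. On slide 1 alone, 4 control arrays against that 1 array, 8 and 5 were called, or 4.94% and 3.09% of members, beside 4.34% and 7.8% of all genes. Both fits give every gene the same difference, NM401 replicate 1 against the control arrays, so the members' median of 0.064 in both is 1 value. Without NM401 replicate 1, 50 members were called higher and 34 lower, beside 21.1% and 35.2% of all tested genes. Slide and NM401 exposure cannot be fully told apart with these arrays.

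**Figure D5:**
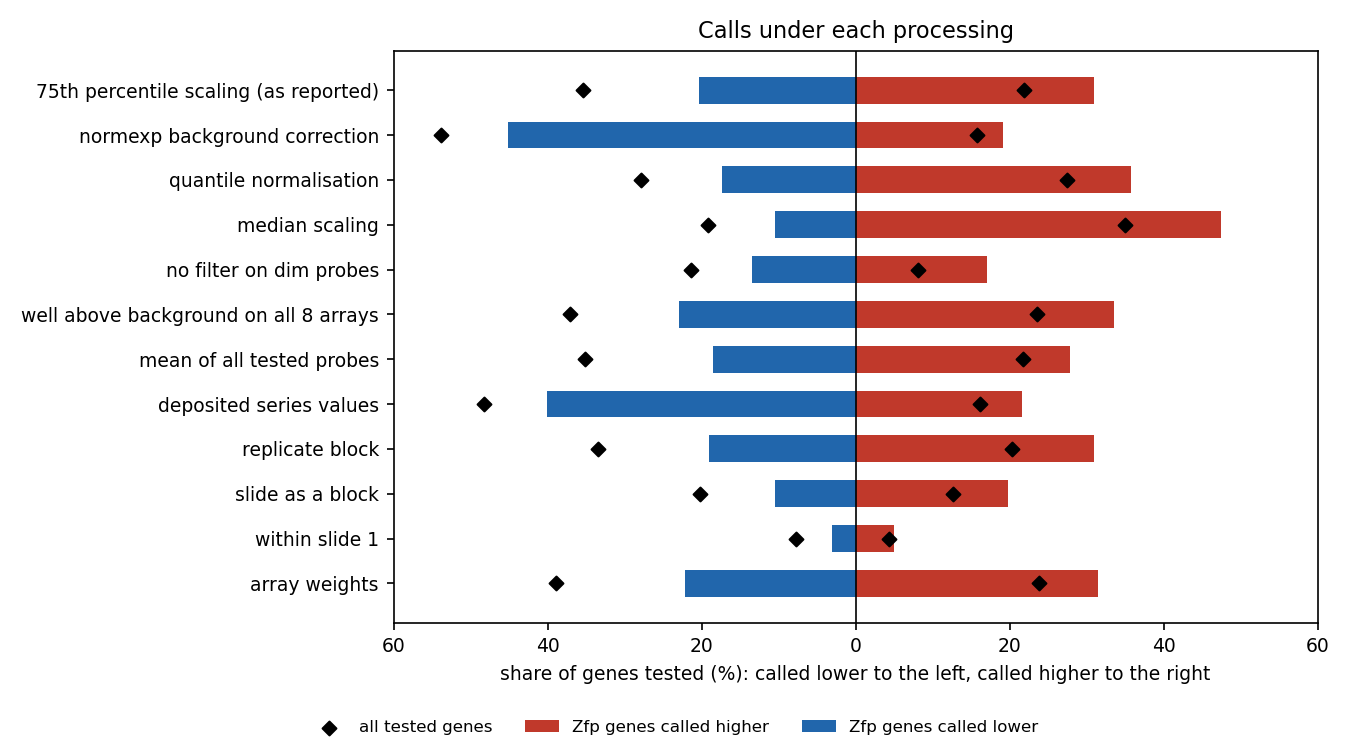
Share of tested genes called higher (red bars, to the right) and lower (blue bars, to the left) among the Zfp members, in percent (horizontal axis), under each way of processing (vertical axis), with black diamonds for all tested genes. The members' shares were 47.5% higher and 10.5% lower with median scaling and 19.1% higher and 45.1% lower with normexp, they were smallest within slide 1 at 4.94% and 3.09%, and the diamonds shift with them.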

How the data were processed

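RNA of 8 cultures was labelled with Cy3 for 1-colour arrays, per the labels' protocols. Spot intensity values were deposited as Agilent Feature Extraction 11.0.1.1 wrote them. Its processed signal is background-subtracted and spatially detrended, per the file headers. The deposited series values were the median pixel intensity of each spot (503808 of 503808 equal). Spots marked as outliers were dropped, the log2 values of a probe's other spots were averaged, and the result was scaled to each array's 75th percentile. Probes well above background on at least 4 arrays were tested with limma 3.58.1 in R 4.3.3 (two-sided, no covariate, Benjamini-Hochberg); the R package data.table (version 1.17.8) read the files. The script was tested on simulated data. Probe positions are rn4, per the file headers; names and promoters are RefSeq GRCr8. Replicates are biological per the labels, and their number, 4 in each group, limits the precision. The members, lists and named genes were chosen with earlier results of these data known. Named were the 12 largest differences in each direction without overlap, members whose probes opposed each other, members with known roles, the 6 brightest and up to 4 KRAB partners with the smallest p. Protein features were not analysed here. Alternatives were normexp (offset 50), quantile and median scaling, no filter on dim probes, a filter on all 8 arrays, averaged probes, the series values, a replicate block, the slide as a block, array weights and leaving out each array.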

Additional observations from a re-analysis of the deposited data

Results flagged for a closer look

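Among the 49 members named by rule, 1 array stood far from the other 3 of its group in 6 of 98 groups of 4. The cutoff flags about 1 in 20 groups of random values. Many of these members were picked because their groups did not overlap, and all share the same arrays, so the count is not set against that rate. Another 17 members were named after their values had been seen, some because of such an array, so their 6 of 34 groups are not set against it either. NM401 replicate 1, the only NM401 array on slide 1, was the one apart in 7 of these 12 groups. It was higher than the other NM401 arrays for Zfp184 (-3.56, others -4.11 to -4.06), Zfp791 (-2.94, others -3.89 to -3.77), Zfp706 (2.00, others 1.78 to 1.80), Zfp7 (-2.47, others -4.07 to -3.99) and Zfp182 (-0.50, others -2.18 to -2.11). It was lower for Zfp622 (-1.23, others -0.90 to -0.84) and Zfp213 (-5.81, others -5.63 to -5.60). NM401 replicate 4 was lower for Zfp428 (-5.55, others -5.33 to -5.30) and NM401 replicate 3 for Zfp598 (1.69, others 1.72 to 1.73). Among controls, replicate 2 was lower for Zfp180 (-2.92, others -2.87 to -2.86), replicate 3 was lower for Zfp574 (-5.48, others -5.00 to -4.92) and replicate 4 was lower for Zfp182 (-2.85, others -2.48 to -2.43).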

How the results depend on the processing

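As reported, 50 members were called higher and 33 lower, with a median difference of 0.07. Normexp gave 31, 73 and -0.14, median scaling 77, 17 and 0.27, and the series values 35, 65 and -0.10. The shares of all tested genes called higher and lower were 15.7% and 53.9%, 35% and 19.2%, and 16.2% and 48.3% in these settings, against 21.9% and 35.4% as reported. With no filter on dim probes the median was -0.0412 over 222 members. The slide as a block gave 32 and 17, and slide 1 alone 8 and 5, both resting on NM401 replicate 1. The KRAB partner list had 16 higher and 7 lower with median scaling, and 2 and 5 on slide 1 alone. Of the named members that had been called, with normexp the direction turned for Zfp593 (-0.29), Zfp61 (-0.014), Zfp180 (-0.018), Zfp516 (-0.32) and Zfp605 (-0.48). With the series values it turned for Zfp593 (-0.075), Zfp516 (-0.23) and Zfp605 (-0.27), and with averaged probes for Zfp516 (-0.13). The cause was not tested. Leaving out 1 array at a time gave 43 to 50 higher and 28 to 34 lower. Same-numbered arrays correlated at 0.193, -0.0024, 0.0823 and -0.0732. These few values show no pairing by number, and they cannot exclude one. The replicate block gave 50 higher and 31 lower. Signal near background limits the dimmest members.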
